A study of Mus musculus with 18 samples.

Results

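The accessory genes of the voltage-gated sodium channels were followed in whole dorsal root ganglia (DRG), the clusters of sensory neuron cell bodies and their glia beside the spinal cord. The genes were chosen by name and not by a rule on their values, though earlier results of these data were known. They are the beta subunits *Scn2b*, *Scn3b* and *Scn4b*, the fibroblast growth factor homologous factors *Fgf11*, *Fgf12*, *Fgf13* and *Fgf14*, and *S100a10*. The array listed all 8 of them, with 20 probe sets, among 18193 genes and 45037 probe sets in all.

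There were 18 arrays in 6 groups of 3. Nav1.7 KO mice carried a floxed *Scn9a* removed by Advillin-Cre, which acts in sensory neurons, so other cells of their DRG kept the gene. The other lines were global null mutants of *Scn10a* (Nav1.8 KO) and of *Scn11a* (Nav1.9 KO). Each line had its own littermate control group, the mice were of both sexes and 8 to 12 weeks old, and ganglia of all spinal levels went into each preparation. Strain was not given for these lines in the sources used here, and nothing said that each array was a separate animal, so p-values measure the spread between these arrays only.

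Each value is a log2 intensity, so a difference of 1 is a 2-fold difference. The level of a gene is that of its brightest probe set, and brightness percentiles are among the 45037 probe sets. A difference was called where its Benjamini-Hochberg adjusted p from limma, taken over all genes or all probe sets, was under 0.05. An array gives no scale on which the level of a gene can be set against that of another, so levels were compared only within a probe set. In whole ganglia, fewer cells of a type and less RNA per cell cannot be told apart.

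A voltage-gated sodium channel is a pore-forming alpha subunit that gathers a set of helper proteins around it. Beta subunits cross the membrane, bear an immunoglobulin-like loop outside the cell, adjust gating and surface number, and act as adhesion molecules. β2 and β4 are joined to the alpha subunit by a disulfide bond, whereas β3 is held without one. The homologous factors are not secreted and do not signal like other fibroblast growth factors: they bind the intracellular tail of the channel and shift its inactivation. S100A10, also called p11, binds annexin A2, and the protein pair carries Nav1.8 to the surface of sensory neurons. These helpers are known from nociceptors and large-diameter sensory neurons alike, with β4 a mark of fast-firing large fibres.

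The targeted genes set the frame for reading their partners. *Scn10a* was 2.98-fold lower in Nav1.8 KO (log2 change −1.57 ± 0.14 SE, adjusted p = 5.4e-05) and *Scn11a* was 3.62-fold lower in Nav1.9 KO (−1.85 ± 0.12, adjusted p = 7.13e-07). *Scn9a* was not called in Nav1.7 KO on its brightest probe set (−0.06 ± 0.06, adjusted p = 0.642), and whether that probe set lies in the deleted part was not established. *Avil*, whose locus gives the Cre driver its name, was 1.56-fold lower there (−0.64 ± 0.04, adjusted p = 8.03e-08). Replicates of a group correlated at 0.996 to 0.998. By *Xist*, the X-inactivation transcript, 7 arrays were high (11.97 or above) and 11 low (5.65 or below): all Nav1.7 littermates were high and all Nav1.8 and Nav1.9 littermates low, while Nav1.7 KO replicate 2 was low and Nav1.8 KO replicates 2 and 3 were high. *Xist* class is therefore mixed with line. Leaving out those 3 KO arrays leaves a single KO array in the Nav1.8 line, and larger moves under that setting are given beside the values they touch. The markers of neurons fixed for the tissue check (10 of 10 measured) were bright in every group, with mean levels from 13.17 to 13.26 across the arrays.

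Promoter windows show how unlike the neighbouring genes *Scn2b* and *Scn4b* are at their starts. The windows below run from 250 bases before to 50 bases after an annotated start, read 5′ to 3′ from RefSeq on GRCm38.p6. They are shown for *Scn2b*, whose level set the Nav1.9 line apart, for *Scn4b*, the gene next to it on chromosome 9, and for *Fgf11*, which had the largest KO differences of the 8 genes. Capitals mark TGGAAA or its reverse complement, the core that NFAT-family factors bind and that was searched because the study asks about NFAT5, a sodium-responsive factor of that family.
Scn2b, chr9:45117626-45117925, plus strand: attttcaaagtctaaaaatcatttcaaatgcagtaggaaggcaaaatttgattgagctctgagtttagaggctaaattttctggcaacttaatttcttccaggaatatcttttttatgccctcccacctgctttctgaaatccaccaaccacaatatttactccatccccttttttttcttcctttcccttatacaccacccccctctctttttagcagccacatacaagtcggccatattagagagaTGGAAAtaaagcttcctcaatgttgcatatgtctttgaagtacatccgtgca
Scn4b, chr9:45138374-45138673, plus strand: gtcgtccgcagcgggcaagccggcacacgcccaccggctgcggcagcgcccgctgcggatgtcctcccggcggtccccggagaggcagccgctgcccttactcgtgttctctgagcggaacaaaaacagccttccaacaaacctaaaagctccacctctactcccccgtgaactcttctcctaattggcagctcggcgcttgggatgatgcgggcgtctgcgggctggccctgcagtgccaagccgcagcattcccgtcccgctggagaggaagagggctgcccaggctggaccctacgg
Fgf11, chr11:69802231-69802530, minus strand: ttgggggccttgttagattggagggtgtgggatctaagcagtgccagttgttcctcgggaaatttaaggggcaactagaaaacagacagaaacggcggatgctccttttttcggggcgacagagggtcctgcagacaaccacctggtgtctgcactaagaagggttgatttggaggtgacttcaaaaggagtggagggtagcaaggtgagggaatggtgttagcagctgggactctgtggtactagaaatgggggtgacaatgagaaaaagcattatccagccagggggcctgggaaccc

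The *Scn2b* window was 38.3% G and C with 2 CpG dinucleotides, the *Scn4b* window 66.3% with 26, and the *Fgf11* window 52.3% with 5. Over all 32851 windows the medians were 52.7% and 7 CpG. The search over both strands found TGGAAA once in the *Scn2b* window and in neither of the others. The NFAT5 consensus named in the paper is longer, with cytosine or thymine required at the 2nd and 4th bases after this core. The *Scn2b* window has adenine at both, so its core does not meet that consensus. The core there also spans the annotated start. The longer consensus was not searched for in the other windows. TGGAAA was present in 21.4% of all windows and in 4 of the 12 windows listed for 6 of the 8 genes. Of these 4, 1 lay in *Scn2b*, 1 in *Fgf12* and 2 in *Fgf13*. *Scn3b* and *S100a10* had no entry.

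No helper gene passed the test in any KO line. In Nav1.7 KO, 0 of 8 genes and 0 of 20 probe sets were called, in a comparison that called 4.33% of all genes and 2.27% of all probe sets. In Nav1.8 KO the counts were again 0 of 8 and 0 of 20, where 0.0165% of genes and 0.00666% of probe sets were called, and in Nav1.9 KO 0 of 8 and 0 of 20, against 0.473% and 0.242%. At an unadjusted p under 0.05 limma had 2, 1 and 2 genes in the Nav1.7, Nav1.8 and Nav1.9 lines, where the shares of all genes were 16.3%, 8.09% and 12.1%. An analysis of variance on the 6 arrays of each line also called 0 of 8 after adjustment. The paper names that test in a figure legend for the Nav1.7 line only, at a p under 0.01 with no adjustment named. The count from analysis of variance at that unadjusted threshold is not given here. The median log2 change of the 8 genes was 0.05, 0.01 and 0.01, beside 0.01, −0.01 and 0.00 over all genes. The 2 most tightly bounded genes were *Fgf13* and *S100a10*, with 95% intervals of no more than 0.11 log2 units on either side of 0 in each line. Both were read near the top of the brightness scale (99.7th percentile each), where those probe sets spanned 0.105 and 0.174 log2 units over all arrays. Other probe sets spanned more: 1.28 on 1418498_at for *Fgf13*, and 0.25 on 1456642_x_at and 0.31 on 1439348_at for *S100a10*. Whether signal is compressed at that brightness was not tested.

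**Figure D1:**
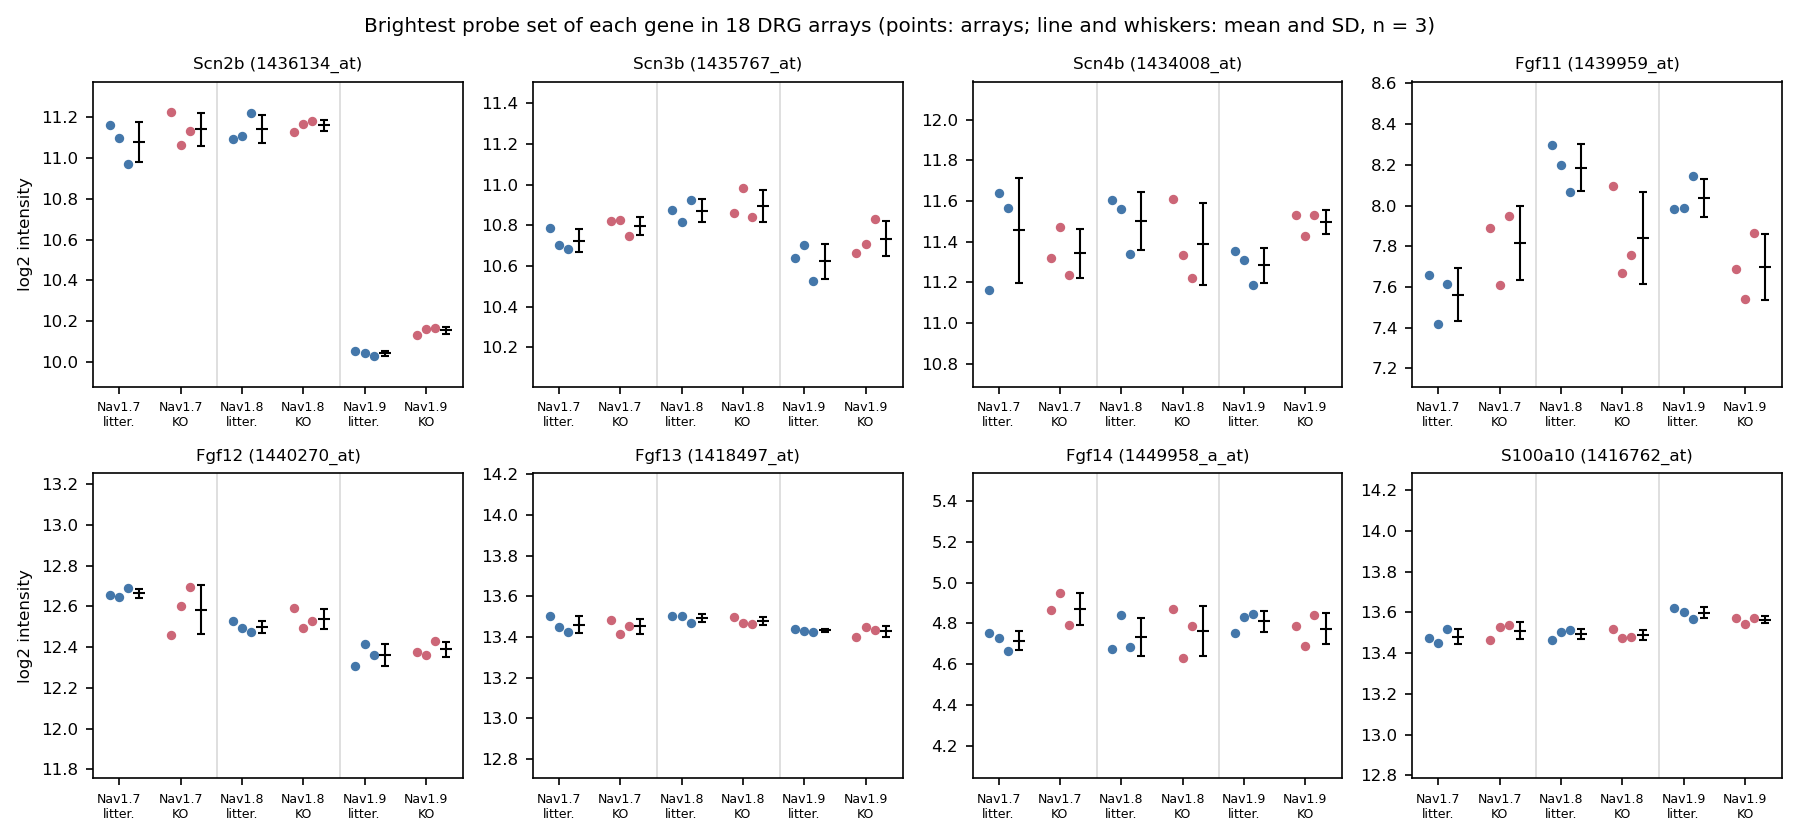
Log2 intensity of the brightest probe set of each gene, by array, in the 6 groups (blue, littermate; red, KO; 3 points a group, with mean and SD beside them). Vertical axes start at different levels and span 1.5 log2 units in each panel. The 6 Nav1.9 arrays of *Scn2b* lie at 10.03 to 10.17, below the 12 others at 10.97 to 11.22, while *Fgf13* and *S100a10* are almost flat.

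Among the beta subunits, *Scn2b* carried the largest differences, and they followed the mouse line and not the knockout. Its brightest probe set, 1436134_at (93.0th percentile), read 11.17, 11.10 and 10.97 in Nav1.7 littermates and 11.22, 11.07 and 11.13 in Nav1.7 KO. It read 11.10, 11.11 and 11.22 in Nav1.8 littermates and 11.13, 11.17 and 11.18 in Nav1.8 KO. In the Nav1.9 line it read 10.05, 10.04 and 10.03 in littermates and 10.13, 10.16 and 10.17 in KO. All 6 Nav1.9 arrays were thus lower than the other 12, with a gap that was many times the spread within groups (pooled SD 0.06).

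Against Nav1.9 littermates, *Scn2b* was 2.05-fold higher in Nav1.7 littermates (log2 difference 1.04 ± 0.05 SE, adjusted p = 1.34e-08) and 2.14-fold higher in Nav1.8 littermates (1.10 ± 0.05, adjusted p = 8.22e-09). The first pair of groups differ in *Xist* class and the second pair do not. Both differences stayed called under each of the 27 alternatives run, and were smallest, at 0.49 and 0.58, when all 3 probe sets were averaged. The difference between littermates of the Nav1.7 and Nav1.8 lines was not called (−0.06, 95% interval −0.18 to 0.05). Line, strain background and array batch cannot be told apart here.

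The other *Scn2b* probe sets moved the same way but less. Probe set 1430648_at read 7.39, 7.32 and 7.18 in Nav1.9 littermates and 7.79, 7.68 and 7.80 in Nav1.8 littermates, a difference of 0.46 ± 0.17 that was not called (adjusted p = 0.0919), and 1 Nav1.7 littermate array, replicate 2, was lower still at 6.94. Its KO change in the Nav1.7 line was 0.26 ± 0.17 (adjusted p = 0.556). The dim 1457144_at (27.5th percentile) ranged from 4.58 to 5.24 over the 18 arrays and was 0.17 ± 0.13 higher in Nav1.8 than in Nav1.9 littermates (adjusted p = 0.444). Among the 6 measured genes nearest to *Scn2b* on chromosome 9, which include *Scn4b*, 0 were called between the Nav1.8 and Nav1.9 littermates. That comparison called 12.8% of all genes. The differences of the 6 ran from 0.03 to 0.37. Whether sequence differences under the probes of 1436134_at take part was not tested.

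**Figure D2:**
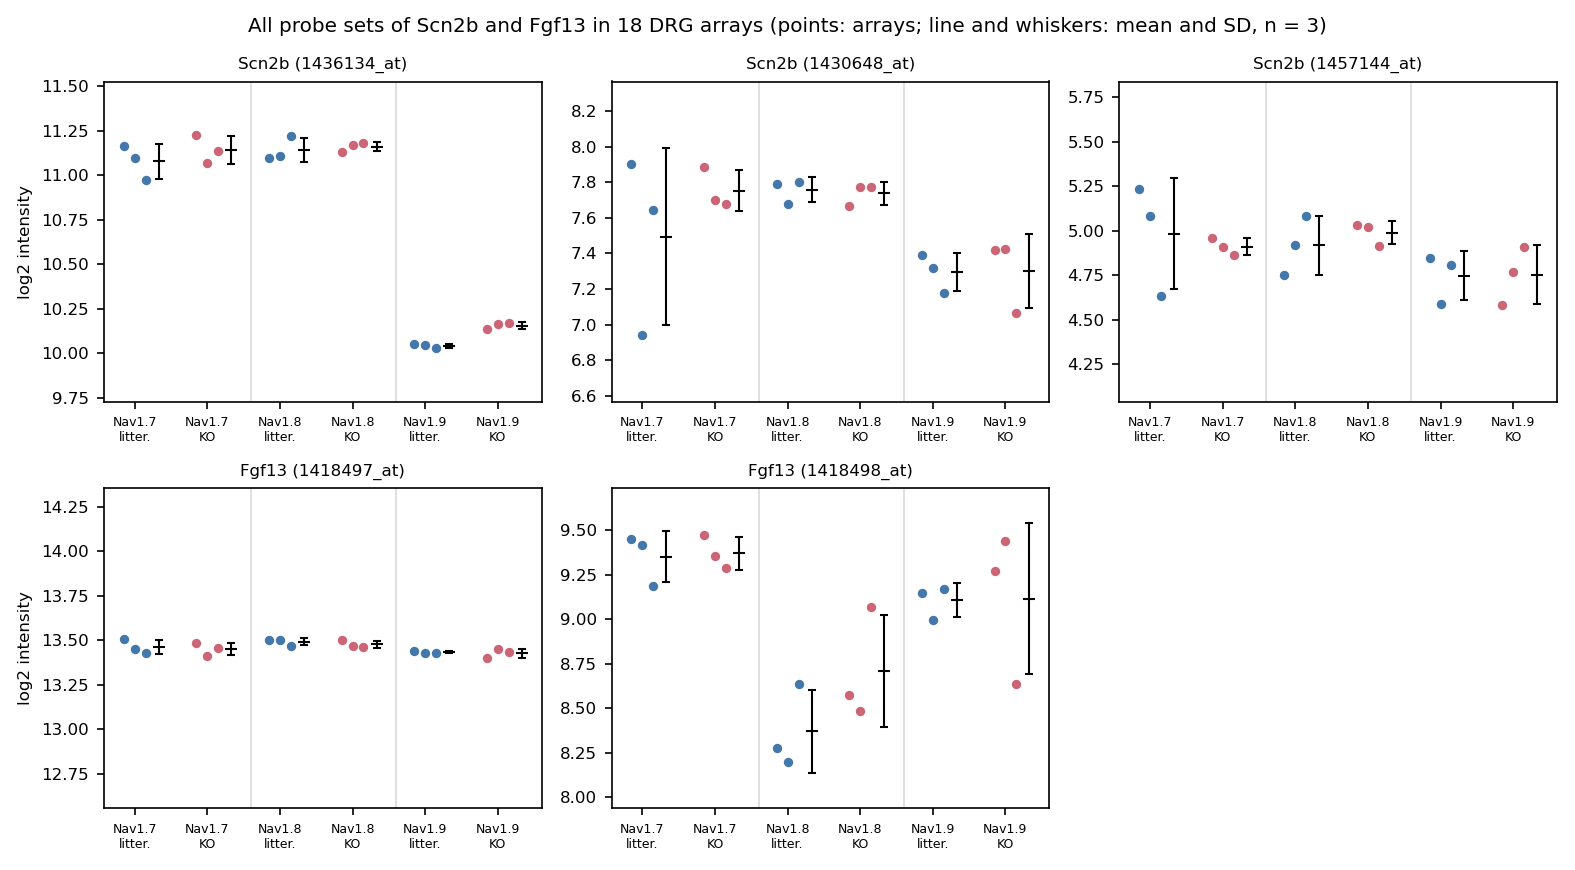
Log2 intensity of each probe set of *Scn2b* (top) and *Fgf13* (bottom), by array, with group means and SD; every panel spans 1.8 log2 units. For *Scn2b* the Nav1.9 arrays stand about 1 unit lower on 1436134_at, and for *Fgf13* the Nav1.8 littermates stand below the other littermates on 1418498_at while 1418497_at stays between 13.40 and 13.51.

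Within the Nav1.9 line the 3 KO arrays of *Scn2b* were above all 3 littermates, where 18% of all genes had groups that did not overlap. The step was small (0.11 ± 0.05, 1.08-fold) and not called by limma (adjusted p = 0.406). That SE draws on the spread of all 6 groups (pooled SD 0.06), whereas the SD was 0.02 in Nav1.9 KO and 0.01 in Nav1.9 littermates. The steps in the Nav1.7 and Nav1.8 lines were 0.06 and 0.02, and no difference between lines in the KO effect on *Scn2b* was called (adjusted p 0.727 to 0.847).

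*Scn3b*, for the β3 subunit that pairs with alpha subunits without a disulfide bond, stood at the 92.9th percentile. Probe set 1435767_at read 10.79, 10.70 and 10.68 in Nav1.7 littermates, 10.87, 10.81 and 10.93 in Nav1.8 littermates, and 10.64, 10.70 and 10.53 in Nav1.9 littermates. The Nav1.8 littermates were above both others, without overlap, as was true of 39.5% (Nav1.7) and 32.4% (Nav1.9) of all genes. Their difference from Nav1.9 littermates was called (0.25 ± 0.06, 1.19-fold, adjusted p = 0.0125), and without Nav1.9 littermate replicate 3 it was 0.20 and not called (adjusted p = 0.0544). The second probe set, 1426328_a_at, was dim (39.5th percentile) and ran the other way: it was 0.29 ± 0.12 lower in Nav1.8 than in Nav1.9 littermates (adjusted p = 0.149), so the order of the lines for *Scn3b* rests on 1 probe set. KO changes of *Scn3b* were 0.07, 0.02 and 0.11 in the Nav1.7, Nav1.8 and Nav1.9 lines, with the largest at an adjusted p of 0.466.

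*Scn4b*, for the β4 subunit known for resurgent current in fast-firing neurons, had a single probe set, 1434008_at, at the 95.7th percentile. Its level in Nav1.9 littermates was 11.35, 11.31 and 11.19, and in Nav1.9 KO 11.53, 11.43 and 11.53. The groups did not overlap, as was true of 18% of all genes in that comparison, and the change of 0.21 ± 0.12 was not called (adjusted p = 0.504). Markers of myelinated mechanoreceptors and proprioceptors, neurons in which *Scn4b* is known, had a median change of 0.14 in the same comparison. Among them 0 of 11 were called, beside 0.473% of all genes, and their part in the *Scn4b* value was not tested. In Nav1.7 littermates *Scn4b* read 11.16, 11.64 and 11.56 and in Nav1.7 KO 11.32, 11.47 and 11.24, so the littermate spread was wider than the difference (−0.11 ± 0.12). In the Nav1.8 line, where 13.8% of all genes had groups that did not overlap, those of *Scn4b* did, and the change was also −0.11 ± 0.12, from 11.60, 11.56 and 11.34 to 11.61, 11.34 and 11.22. That direction turned, to 0.11, when the arrays of mismatched *Xist* class were left out, and to 0.06 with *Xist* class as a term. Among genes at or above the median gene in mean level, the one most like *Scn4b* over all 18 arrays was *Syt2* (Pearson r = 0.829). It encodes a synaptotagmin of fast calcium-triggered release.

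Among the homologous factors, *Fgf11*, the least studied of the 4, was the single gene of the set whose brightest probe set had KO changes above 0.25 log2 units, and their sign differed between lines. Probe set 1439959_at (68.4th percentile) read 7.66, 7.42 and 7.61 in Nav1.7 littermates and 7.89, 7.61 and 7.95 in Nav1.7 KO. In the Nav1.8 line it went from 8.30, 8.20 and 8.07 in littermates to 8.09, 7.67 and 7.75 in KO. In the Nav1.9 line it went from 7.98, 7.99 and 8.14 to 7.69, 7.54 and 7.87.

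The *Fgf11* arrays of the Nav1.9 line did not overlap between genotypes, as was true of 18% of all genes there. Those of the Nav1.7 and Nav1.8 lines did overlap, where 20.4% and 13.8% of all genes did not. The change was 0.25 ± 0.12 in Nav1.7 KO (adjusted p = 0.296), −0.35 ± 0.12 in Nav1.8 KO (adjusted p = 0.495) and −0.34 ± 0.12 in Nav1.9 KO (adjusted p = 0.256), and none was called. With the 3 arrays of mismatched *Xist* class left out, the Nav1.8 value shrank to −0.09 and the Nav1.7 value grew to 0.36 (adjusted p = 0.0921). The 3 littermate groups did not start from the same level: Nav1.7 littermates were 0.62 ± 0.12 lower than Nav1.8 littermates (1.54-fold, adjusted p = 0.0016) and 0.47 ± 0.12 lower than Nav1.9 littermates (1.39-fold, adjusted p = 0.0146). With *Xist* class as a term of the model both lost their call (adjusted p = 0.0579 and 0.172). The second call was also lost on leaving out replicate 2 of the Nav1.7 littermates (adjusted p = 0.0653) or replicate 3 of the Nav1.9 littermates (0.0626). The 6 groups ran from Nav1.8 littermates at the top through Nav1.9 littermates, Nav1.8 KO, Nav1.7 KO and Nav1.9 KO to Nav1.7 littermates, and each neighbour in that order overlapped the next.

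The difference between KO effects on *Fgf11* was 0.60 ± 0.17 for Nav1.7 against Nav1.8 (adjusted p = 0.0808) and 0.59 ± 0.17 for Nav1.7 against Nav1.9 (adjusted p = 0.0729), neither called, in comparisons that called 2.15% and 2.82% of all genes. These 2 differences share the Nav1.7 arrays. Both were called without Nav1.7 KO replicate 2 (0.70 in each, adjusted p = 0.0432 and 0.034) and without Nav1.8 KO replicate 1 (0.73 and 0.59, adjusted p = 0.0194 and 0.0386). The Nav1.8 effect minus the Nav1.9 effect was −0.01 (95% interval −0.36 to 0.34), in a comparison that called 0.0385% of all genes. With the arrays of mismatched *Xist* class left out, that difference moved to 0.25, and the difference between the Nav1.7 and Nav1.9 effects was 0.70 and called (adjusted p = 0.0184). With the mean of both probe sets in place of the brightest, the Nav1.7 effect differed from the Nav1.8 and Nav1.9 effects by 0.27 and 0.31 and was not called (adjusted p = 0.169 and 0.0961), and the KO changes shrank to −0.09 in the Nav1.8 line and −0.13 in the Nav1.9 line. The dim second probe set, 1421793_at (31.1st percentile), lay between 4.87 and 5.33 on all arrays and had no called difference. Its KO changes were 0.09, 0.16 and 0.07 in the Nav1.7, Nav1.8 and Nav1.9 lines, so in the last 2 its sign was opposite to that of 1439959_at.

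A list of nerve injury genes, fixed as markers, had medians of the same sign as the *Fgf11* change in each line. Of its 15 genes, 3 rose and 0 fell in Nav1.7 KO (median 0.31), 0 were called in Nav1.8 KO (median −0.24), and 9 fell and 0 rose in Nav1.9 KO (median −0.58). The shares of all genes called in these comparisons were 4.33%, 0.0165% and 0.473%. With the arrays of mismatched *Xist* class left out, 1 rose in Nav1.7 KO and 6 fell in Nav1.9 KO. No array of the Nav1.9 line was left out there. Its median stayed at −0.58, and its count moved only with the spread estimate and the adjustment. The mean level of the list was 8.60 on each of the 3 Nav1.7 littermate arrays, 8.86 to 8.99 in Nav1.8 littermates and 9.19 to 9.89 in Nav1.9 littermates, against 8.57 to 9.02 over the 9 KO arrays. *Sprr1a*, a small proline-rich protein of regrowing axons, fell by 3.20 on the log2 scale in Nav1.9 KO (adjusted p = 0.00554). *Atf3*, the transcription factor switched on by axon damage, fell by 1.83 there (adjusted p = 0.00711). *Jun*, its partner, rose by 0.41 in Nav1.7 KO (adjusted p = 0.00256) and fell by 0.43 in Nav1.9 KO (adjusted p = 0.0121). Other lists had medians of the same signs. In the Nav1.7, Nav1.8 and Nav1.9 lines the skeletal muscle medians were 0.64, −0.57 and −0.52. Peptidergic nociceptors had 0.01, −0.12 and −0.14, and satellite glia 0.07, −0.04 and −0.10. Schwann cell and myelin genes had 0.02, −0.03 and −0.04, and beta subunit processing 0.06, −0.02 and −0.04. Whether the genes of any of these lists have a part in the *Fgf11* values was not tested. Markers of other kinds also moved in Nav1.7 KO alongside its *Fgf11* value: 6 of 7 for non-peptidergic nociceptors, 3 of 3 for C-LTMR neurons (low-threshold C-fibre mechanoreceptors) and 2 of 11 for myelinated mechanoreceptors and proprioceptors fell, and 3 of 7 for peptidergic nociceptors rose. Without the arrays of mismatched *Xist* class these counts were 3, 3, 1 and 2.

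**Figure D3:**
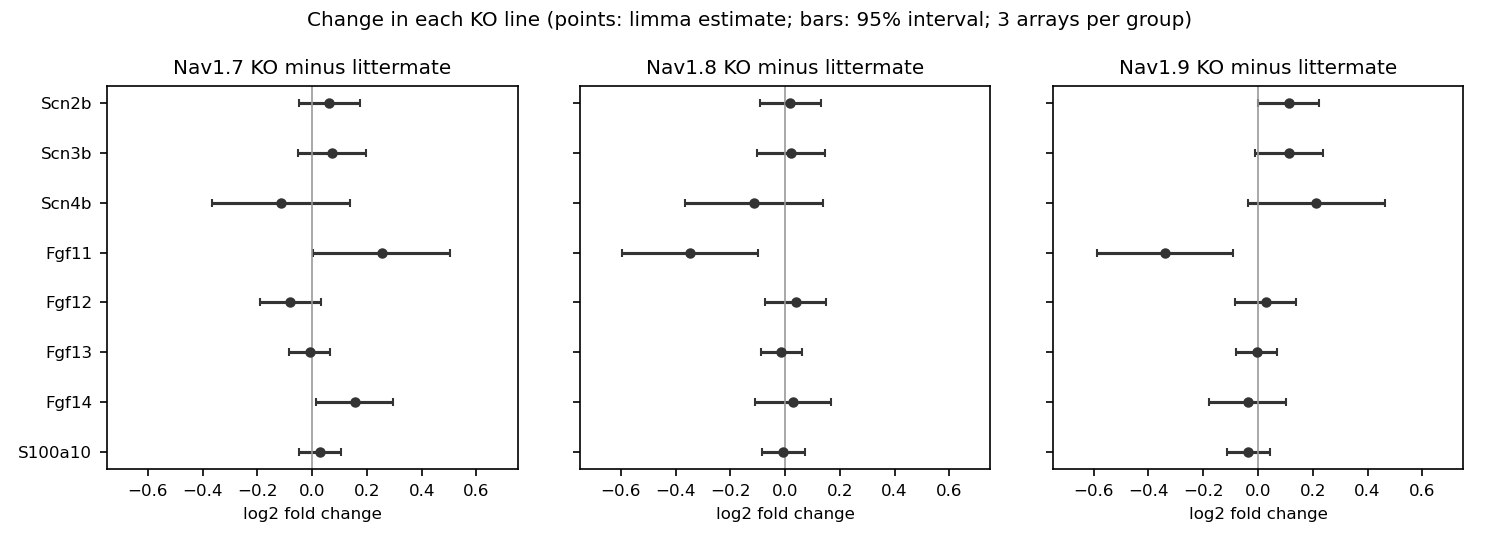
Log2 change of each gene in KO against littermates of the same line, as the limma estimate with its 95% interval (3 arrays a group). *Fgf11* lies to the right of 0 in the Nav1.7 line and to the left in the Nav1.8 and Nav1.9 lines, and the estimates of the other genes lie within 0.22 of 0.

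*Fgf12* was bright on all 3 of its probe sets (98.4th, 92.4th and 90.5th percentiles) and had no called KO change. Probe set 1440270_at read 12.65, 12.65 and 12.69 in Nav1.7 littermates, 12.53, 12.49 and 12.47 in Nav1.8 littermates, and 12.31, 12.42 and 12.36 in Nav1.9 littermates. The 3 littermate groups did not overlap, as was true of 39.5%, 30.7% and 32.4% of all genes in the Nav1.7 to Nav1.8, Nav1.7 to Nav1.9 and Nav1.8 to Nav1.9 comparisons. Nav1.7 littermates were 0.30 ± 0.05 above Nav1.9 littermates (1.23-fold, adjusted p = 0.00156) and 0.17 ± 0.05 above Nav1.8 littermates (1.12-fold, adjusted p = 0.0334). The second was lost with *Xist* class as a term (adjusted p = 0.1) and without any 1 of the 6 arrays compared (0.0544 to 0.0949). It was also lost with the arrays of mismatched class left out, though none of those is a littermate array and the difference stayed at 0.17.

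The other *Fgf12* probe sets also put the Nav1.7 littermates on top, but disagreed on the rest. On 1436432_at the Nav1.7 littermates were 0.34 ± 0.06 above Nav1.8 (adjusted p = 0.000856) and 0.32 ± 0.06 above Nav1.9 (adjusted p = 0.00297), with Nav1.8 and Nav1.9 alike to within 0.15 (difference −0.03, 95% interval −0.15 to 0.10). On 1451693_a_at the Nav1.8 littermates were the lowest, at 10.47, 10.40 and 10.49 against 10.74, 10.65 and 10.69 in Nav1.9 littermates (−0.24 ± 0.07, adjusted p = 0.0453). That last call was lost in 14 of the 25 alternatives. Among these were quantile normalization (adjusted p = 0.075) and leaving out any of the 6 arrays compared (0.0629 to 0.157). The rest left out an array of another group (0.0501 to 0.0562).

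*Fgf13*, the homologous factor best known in nociceptors, was read at the 99.7th percentile of the array on 1418497_at. Of the 4 factors it varied least between arrays, on that probe set. Over all 18 arrays that probe set ran from 13.40 to 13.51, and its KO changes were −0.01 in each of the 3 lines with 95% intervals inside −0.09 to 0.07. *Fgf13* is X-linked, and the arrays high in *Xist* spanned 13.43 to 13.51 while the low ones spanned 13.40 to 13.50. Its second probe set, 1418498_at (80.2nd percentile), behaved otherwise between lines. It read 9.45, 9.42 and 9.19 in Nav1.7 littermates, 8.28, 8.20 and 8.64 in Nav1.8 littermates, and 9.15, 9.0 and 9.17 in Nav1.9 littermates.

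On 1418498_at the Nav1.8 littermates overlapped neither other littermate group. Of all genes, on the brightest probe set, 39.5% did not overlap against Nav1.7 and 32.4% against Nav1.9. The Nav1.8 littermates were lower by 0.98 ± 0.18 against Nav1.7 (1.97-fold, adjusted p = 0.00134) and by 0.74 ± 0.18 against Nav1.9 (1.67-fold, adjusted p = 0.0147). With *Xist* class as a term the first was 0.87 and no longer called (adjusted p = 0.0728), and the second was lost without Nav1.8 littermate replicate 1 (0.0618) or 2 (0.0731) or Nav1.9 littermate replicate 1 (0.0522) or 3 (0.0511). Its values in Nav1.8 KO were 8.57, 8.49 and 9.07 and in Nav1.9 KO 9.27, 9.44 and 8.64, so the KO groups of these lines overlapped. Its KO change was 0.34 ± 0.18 in the Nav1.8 line (adjusted p = 0.656), as large as those of *Fgf11* and not called. *Fgf13* has 4 annotated promoter windows, 2 of them rich in CpG (37 and 40) and 2 poor (6 and 3). Which transcripts each probe set detects was not established, and the contrast of a flat and a line-dependent probe set is given as measured.

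*Fgf14*, known for its role in cerebellar neurons, stayed dim. Its 4 probe sets sat between the 12.8th and 25.5th percentiles, and over all arrays they ran from 3.86 to 4.95. On the brightest, 1449958_a_at, Nav1.7 KO read 4.87, 4.95 and 4.79 and Nav1.7 littermates 4.75, 4.73 and 4.66, without overlap, as for 20.4% of all genes in that comparison. The change of 0.16 ± 0.07 was not called (adjusted p = 0.245). On 1435747_at Nav1.7 KO moved the other way (−0.14), and that probe set was called without Nav1.7 littermate replicate 2 (−0.28, adjusted p = 0.0411), the 1 call on any probe set of the 8 genes in a KO comparison over the alternatives run. The probe sets of *Fgf14* therefore gave no direction.

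*S100a10* was bright on 1416762_at and 1456642_x_at (99.7th and 99.5th percentiles), the second of which can cross-hybridize by its name. Probe set 1416762_at read 13.47, 13.45 and 13.52 in Nav1.7 littermates, 13.47, 13.51 and 13.51 in Nav1.8 littermates, and 13.62, 13.60 and 13.57 in Nav1.9 littermates. The 6 arrays of the Nav1.9 line, at 13.54 to 13.62, were all above the other 12, at 13.45 to 13.54, with almost no gap, which is the reverse of the *Scn2b* order. The step was small: 0.12 ± 0.04 between Nav1.9 and Nav1.7 littermates (1.08-fold, adjusted p = 0.0455 over genes and 0.088 over probe sets). It lost its call in 19 of the 27 alternatives, among them the mean over probe sets (0.03, adjusted p = 0.713) and *Xist* class as a term (adjusted p = 0.415). The KO changes were 0.03, −0.01 and −0.04. In Nav1.8 KO, where its cargo *Scn10a* was 2.98-fold lower, the 95% interval for *S100a10* was −0.08 to 0.07.

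Counted over the whole set, littermates of the 3 lines differed in 2 of 8 genes between Nav1.7 and Nav1.8, 4 of 8 between Nav1.7 and Nav1.9, and 2 of 8 between Nav1.8 and Nav1.9. The shares of all genes called were 23.3%, 12.2% and 12.8%. By probe set the counts were 5, 4 and 4 of 20, beside 18.7%, 9.42% and 10.8% of all probe sets. Line differences were therefore common across the array, and the genes here carried a few of them. These comparisons share littermate groups.

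**Figure D4:**
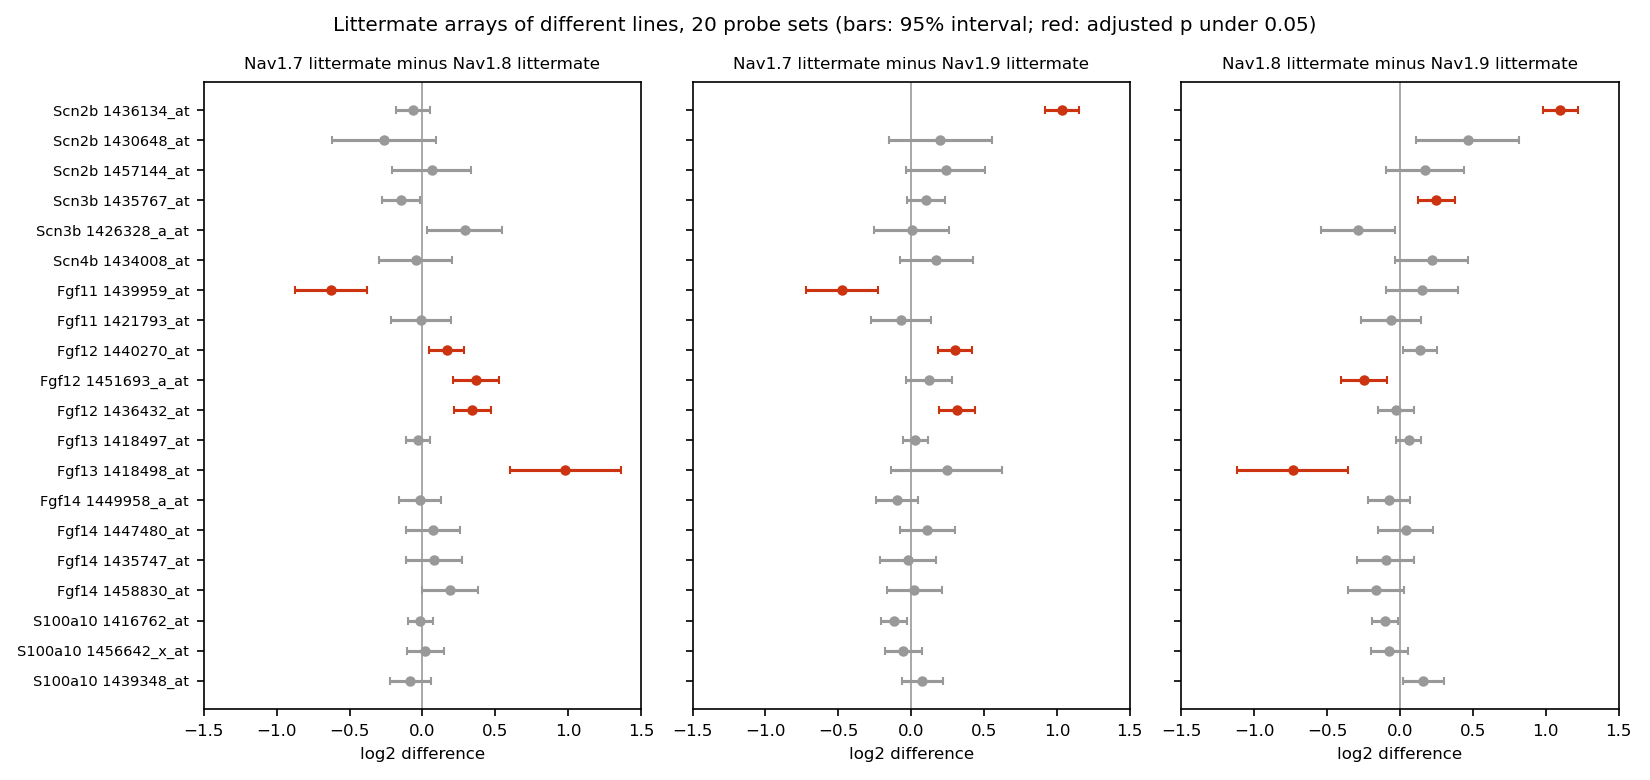
Log2 difference between littermates of each pair of lines for the 20 probe sets, with 95% intervals (3 arrays a group); red marks an adjusted p under 0.05. *Scn2b* 1436134_at stands near 1 in both comparisons with Nav1.9, and *Fgf13* 1418498_at lies at 0.98 and −0.74 in the comparisons with Nav1.8.

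The partners that these proteins touch were counted by lists. Of the alpha subunits, 8 of 10 were measured, and the targeted *Scn10a* and *Scn11a* were the only ones called in any KO line. In Nav1.7 KO the median of the 8 was −0.23 with 0 called, and *Scn10a* and *Scn11a* read −0.38 ± 0.14 and −0.30 ± 0.12 (adjusted p = 0.148 and 0.206). Of 14 nodal anchors and adhesion partners, the proteins that hold channels at the axon initial segment and the node, 0 were called in any line, and of 9 measured genes of beta subunit processing, the secretases that cut beta subunits, 0 were called. With the arrays of mismatched *Xist* class left out, *Tnc*, for the matrix protein tenascin C, was called among the nodal partners in Nav1.7 KO (0.40, adjusted p = 0.0149; named after its value was seen), and *Scn10a* in Nav1.8 KO was at −1.55 with an adjusted p of 0.053, with a single KO array left in that line.

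Of 11 measured annexin and S100 genes, 3 rose and 0 fell in Nav1.7 KO (median 0.11), 0 were called in Nav1.8 KO, and 1 fell in Nav1.9 KO. The shares of all genes called were 4.33%, 0.0165% and 0.473%. *Anxa2*, the partner that *S100a10* binds, was at 13.89 ± 0.04 (SD, n = 3) in Nav1.7 littermates and 13.98 ± 0.03 in Nav1.7 KO, a change of 0.09 ± 0.04 SE that was not called (adjusted p = 0.206), and it changed by −0.01 and −0.03 in the Nav1.8 and Nav1.9 lines. *S100a4*, a calcium-binding protein of motile cells, rose by 0.26 in Nav1.7 KO (adjusted p = 0.0181), from 10.05 ± 0.07 to 10.31 ± 0.01 (SD, n = 3). *Ahnak*, a large scaffold that binds the annexin A2 and S100A10 complex, rose by 0.15 (adjusted p = 0.0248), and *S100a1*, another calcium sensor, by 0.20 (adjusted p = 0.029). *S100a16* fell by 0.25 in Nav1.9 KO (adjusted p = 0.0212). The arrays of mismatched *Xist* class include none of the Nav1.9 line. Leaving them out kept that change at −0.25, and only the spread estimate and the adjustment differed. With the arrays of mismatched *Xist* class left out, 0 of the 11 were called in any line, with *S100a4* at 0.27 (adjusted p = 0.0642) and *Ahnak* at 0.14 (adjusted p = 0.123). Macrophage markers, whose cells can also carry annexins and S100 proteins, had a median change of 0.38 in Nav1.7 KO with 0 of 9 called (0.45 with 2 of 9 called higher, *Csf1r* and *C1qa*, without the arrays of mismatched *Xist* class), and mean levels of 6.46 to 6.84 in littermates and 6.87 to 7.25 in KO. Their part was not tested.

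Of 15 measured trafficking and modification genes, 2 fell and 0 rose in Nav1.7 KO, and 0 were called in the other lines. *Kif5a*, a neuronal kinesin heavy chain that hauls cargo along axons, went from 13.42 ± 0.03 in littermates to 13.14 ± 0.05 in KO (SD, n = 3; change −0.29, adjusted p = 0.000362). *Prkca*, for protein kinase Cα, fell by 0.20 (adjusted p = 0.0312). Without the arrays of mismatched *Xist* class *Kif5a* stayed called at −0.26 (adjusted p = 0.0056) and *Prkca* did not (−0.17, adjusted p = 0.128). Beside them, the neuronal marker list had a median change of −0.04 in Nav1.7 KO, with 0 of 10 called.

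Likeness of pattern was measured by correlation across the 18 arrays, among genes at or above the median gene in mean level. The values given were picked as the highest of that search. For *Scn2b* the closest genes were *Cyb5d2* (Pearson r = 0.924) and *Brip1os* (0.912), and for *S100a10* they were *Triap1* (0.875) and *Anapc16* (0.872). For *Scn3b* they were *Tmcc2* (0.909) and *Parva* (0.901), and for *Fgf12* *Fam126b* (0.922) and *G0s2* (0.908). *Fgf11* was closest to *Fam214b* (0.889) and *Fah* (0.868), *Fgf13* to *Usp40* and *Kcmf1* (both 0.855), and *Fgf14* to *Sat2* (0.789) and *Pdlim5* (0.745). *Ptpa* came after *Syt2* for *Scn4b* (0.786). These are descriptions over arrays that share line and genotype. Between members, *Scn2b* and *S100a10* had the strongest negative value over all arrays (−0.851), and it was −0.439 once group means were removed. Within groups, *Scn2b* was more negative with *Scn4b* (−0.634, against 0.064 over all arrays) and with *Fgf12* (−0.494, against 0.747).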

How the data were processed

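The 18 arrays were Affymetrix GeneChips for the mouse genome, hybridised with RNA of whole DRG. The authors deposited 1 table of log2 intensity per probe set, made in Affymetrix Expression Console per the labels; the version, summary and normalization settings are not given in the sources used here, and depth has no counterpart on arrays, where 3 arrays a group limit the precision. Array medians were 6.33 to 6.36.

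Groups came from sample titles. From 45101 probe sets, 64 controls were left out. In the annotation used, 34945 probe sets had 1 gene symbol, 932 several and 9160 none. A gene took its brightest probe set named for it alone. limma 3.58.1 in R 4.3.3 (lmFit, eBayes) fitted 6 group means without covariates, with Benjamini-Hochberg adjustment over all genes or probe sets; the script was tested on simulated data. Detection calls were not used.

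The 8 genes, the 5 partner and 12 marker lists and the tests were chosen with earlier results of these data known. Named are all members, *Anxa2*, the targeted genes, called list members (up to 4 a list and line) and the 2 most alike genes per member. Marker lists are given mainly by counts, with genes named only where a result turned on them. Alternatives covered normalization, filter, probe set choice, variance prior, array weights, *Xist* class and single-line fits. They also covered the paper's test and threshold, a replicate block and each array left out. Applying them to probe-set counts between littermates and between KO effects, to single differences of these kinds, and to partner lists was chosen after seeing the data.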

Additional observations from a re-analysis of the deposited data

How the results depend on the processing

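No member gene was called in a KO line under any of the 13 alternatives or with any array left out. The 1.5-fold rule among them could call none, since the largest KO change of a member gene was 1.27-fold (*Fgf11*, Nav1.8 KO). No member probe set was called under 11 alternatives, while leaving out arrays gave 0 to 1 probe set in Nav1.7 KO. The brightness filter among these settings dropped probe sets under the 40th percentile. It removed *Fgf14* and the dim probe sets of *Scn2b*, *Scn3b* and *Fgf11*, so fewer members were tested there. Leaving out arrays gave 1 to 2, 2 to 4 and 1 to 2 genes between the littermates of Nav1.7 and Nav1.8, Nav1.7 and Nav1.9, and Nav1.8 and Nav1.9 (main counts 2, 4 and 2), and 4 to 5, 3 to 5 and 1 to 4 probe sets. For KO effects that differ between Nav1.7 and Nav1.8 or Nav1.9 it gave 0 to 1 genes and 0 to 1 probe sets in each. *Xist* class as a term left 0 and 2 genes (Nav1.7 against Nav1.8 and Nav1.9 littermates) and 2 probe sets (Nav1.7 against Nav1.8). Leaving out the arrays of mismatched class gave 1 gene (Nav1.7 against Nav1.8 littermates), and 1 gene and 1 probe set whose KO effect differs between Nav1.7 and Nav1.9. A trended, robust prior gave 4 genes between Nav1.8 and Nav1.9 littermates and 1 gene with a different KO effect in Nav1.7 and Nav1.9, and array weights gave 1 for Nav1.7 and Nav1.8. With the mean of all probe sets, 3 littermate differences reversed: *Fgf13* to 0.47 (Nav1.7 minus Nav1.8) and −0.34 (Nav1.8 minus Nav1.9), and *Scn3b* to −0.019 (Nav1.8 minus Nav1.9), since probe sets of these genes disagree. Otherwise the cause was not tested. Scaling moved the median of all genes by less than 0.1.

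Replicate numbers were shared between KO and littermates of a line. Same-numbered arrays did not deviate together throughout (correlations −0.19 to 0.27), so they are not taken as pairs. KO arrays correlated best with their own number in 5 of 9 cases. In the Nav1.7 line every KO array did so (0.02, 0.25 and 0.27). With a replicate block within each line, 0 members were called in any KO line, and 585, 2 and 38 of all genes against 787, 3 and 86 without it. The block gave 1 gene and 1 probe set, *Fgf11* in each case, whose KO effect differs between Nav1.7 and Nav1.8 (adjusted p = 0.0167 for the gene) and between Nav1.7 and Nav1.9 (0.0145). The block could not be fitted for differences between littermates of different lines.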
